A study of Mus musculus with 6 samples.

Results

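The granulocyte-monocyte fate factors described here are 10 genes: Cebpa, Cebpb, Cebpd, Cebpe, Gfi1, Gfi1b, Sfpi1 (the symbol of the counting annotation for the PU.1 gene, now Spi1), Spic, Klf4 and Zeb2. They were chosen by name, as the rows whose gene identifier equals 1 of these symbols, and all 10 were found among 23337 counted genes. The choice was made with earlier results of these data known, so counts of members set beside all tested genes are descriptions. All libraries came from mouse blood stem and progenitor cells, abbreviated HSPCs, carrying the leukemia fusion gene MLL-AF9. The groups differed in their culture condition, which was pro-lymphoid for 3 libraries (lymphoid replicates 1, 5 and 6) and pro-myeloid for 3 libraries (myeloid replicates 2, 3 and 4). Both groups carry the fusion, so no untransformed cells serve as a control. The mouse strain, the media and cytokines, and whether the libraries of a group came from separate cultures or animals were not stated in the labels. The p-values below therefore judge the group differences only against the spread among these libraries, which may be technical. Poly(A) RNA was sequenced to 34972488 to 46724382 counts per library.

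The C/EBP proteins are basic leucine zipper factors that bind DNA as dimers. C/EBP alpha is needed to form granulocyte-monocyte progenitors, C/EBP beta takes part in emergency granulopoiesis, and C/EBP epsilon acts late, in the terminal maturation of granulocytes. GFI1 and its paralog GFI1B are zinc finger repressors that recruit the demethylase LSD1. GFI1 favors granulocytes over monocytes, GFI1B is best known from erythroid cells and megakaryocytes, and each can repress the gene of the other. PU.1 is an ETS factor whose dose relative to C/EBP alpha is known to influence the choice between monocyte and granulocyte fates, Spi-C is an ETS relative known from red pulp macrophages, and KLF4 and ZEB2 are zinc finger factors with roles in monocyte and dendritic cell development.

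Promoters of 4 members are shown because the results turn on them: Gfi1 and Gfi1b, the paralog pair with opposite changes, and Cebpa and Cebpb, which were lower together. Each sequence is from RefSeq on GRCm38.p6, covers 250 bases before and 50 bases from the transcript start, and is given 5′ to 3′ on the strand of the gene. Capitals mark matches to 4 short motifs searched on both strands. The motifs were TTGCNNAA for C/EBP, GAGGAA for PU.1, AAATCA for GFI1 and AGATAA for the erythroid factor GATA1. Other forms of these sites were not searched, so TGATAA, another form of the GATA1 site, is unmarked in the Gfi1b sequence. The 4 motifs occurred in 10.8%, 28.3%, 14.0% and 11.2% of 32817 promoters of the same length.
Gfi1b, chr2:28621933-28622232, minus strand: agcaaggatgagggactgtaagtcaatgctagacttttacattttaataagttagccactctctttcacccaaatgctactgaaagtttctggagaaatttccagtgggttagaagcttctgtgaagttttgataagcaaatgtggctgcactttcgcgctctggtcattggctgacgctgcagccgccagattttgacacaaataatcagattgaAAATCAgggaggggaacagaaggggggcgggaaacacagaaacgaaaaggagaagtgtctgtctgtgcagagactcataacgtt
Gfi1, chr5:107724294-107724593, minus strand: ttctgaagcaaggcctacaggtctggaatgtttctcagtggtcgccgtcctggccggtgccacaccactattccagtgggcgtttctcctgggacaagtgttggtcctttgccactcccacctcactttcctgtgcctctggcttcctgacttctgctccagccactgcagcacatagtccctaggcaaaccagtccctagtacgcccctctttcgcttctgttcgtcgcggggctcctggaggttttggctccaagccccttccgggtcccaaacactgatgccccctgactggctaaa
Cebpa, chr7:35119043-35119342, plus strand: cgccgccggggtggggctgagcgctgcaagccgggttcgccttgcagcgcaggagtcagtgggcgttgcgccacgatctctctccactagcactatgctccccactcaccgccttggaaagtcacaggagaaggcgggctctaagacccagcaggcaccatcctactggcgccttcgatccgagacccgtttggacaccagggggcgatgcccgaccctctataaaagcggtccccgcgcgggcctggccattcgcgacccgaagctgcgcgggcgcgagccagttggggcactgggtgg
Cebpb, chr2:167688665-167688964, plus strand: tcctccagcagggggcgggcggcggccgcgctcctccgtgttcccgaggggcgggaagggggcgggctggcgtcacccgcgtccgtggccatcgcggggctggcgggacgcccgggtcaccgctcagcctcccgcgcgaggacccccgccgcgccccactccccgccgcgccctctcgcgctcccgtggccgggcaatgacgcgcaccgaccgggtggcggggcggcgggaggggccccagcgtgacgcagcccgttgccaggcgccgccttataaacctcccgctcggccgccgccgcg
The Gfi1b promoter held 1 AAATCA on the strand of the gene, at bases -34 to -29 from the start, and no match overlapped another. The other 3 printed sequences held none of the 4 motifs, which says only that these letters are not in these windows. A second Gfi1 promoter, at chr5:107725756-107726055 upstream of the counted start, held TTGCTGAA, a match to the C/EBP motif, at bases -143 to -136 from its start. The GC content was 44.3% for Gfi1b, 58.0% for Gfi1, 67.3% for Cebpa and 80.7% for Cebpb, against a median of 52.7% over all promoters. Of the other members, Klf4, Spic and Zeb2 had an entry, so that 7 of 10 members matched with 11 promoters. GAGGAA occurred in all 4 Zeb2 promoters, of which 2 share most of their bases, and TTGCAAAA, a C/EBP match, occurred in 1 of the 4 at bases -221 to -214. A match is a description and not a binding site.

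All 10 members passed the filter on low counts, and 9 differed between the cultures in edgeR's quasi-likelihood test at a Benjamini-Hochberg adjusted p under 0.05. Over all 12477 tested genes 37.4% passed. Gfi1b and Spic were higher in pro-lymphoid culture, as were 16.8% of tested genes. Cebpa, Cebpb, Cebpd, Cebpe, Gfi1, Sfpi1 and Zeb2 were lower there (7 members), as were 20.6% of tested genes, and Klf4 did not pass. In 9 members no pro-lymphoid value fell within the pro-myeloid range or the reverse, which held for 53.5% of tested genes. The median size of the log2 fold change, without its sign, was 2.18 over the members and 0.45 over all tested genes. The median log2 fold change (pro-lymphoid minus pro-myeloid) was -1.06 over the members and 0 over all tested genes. In bulk RNA, fewer cells that express a gene and less RNA per cell cannot be told apart.

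**Figure D1:**
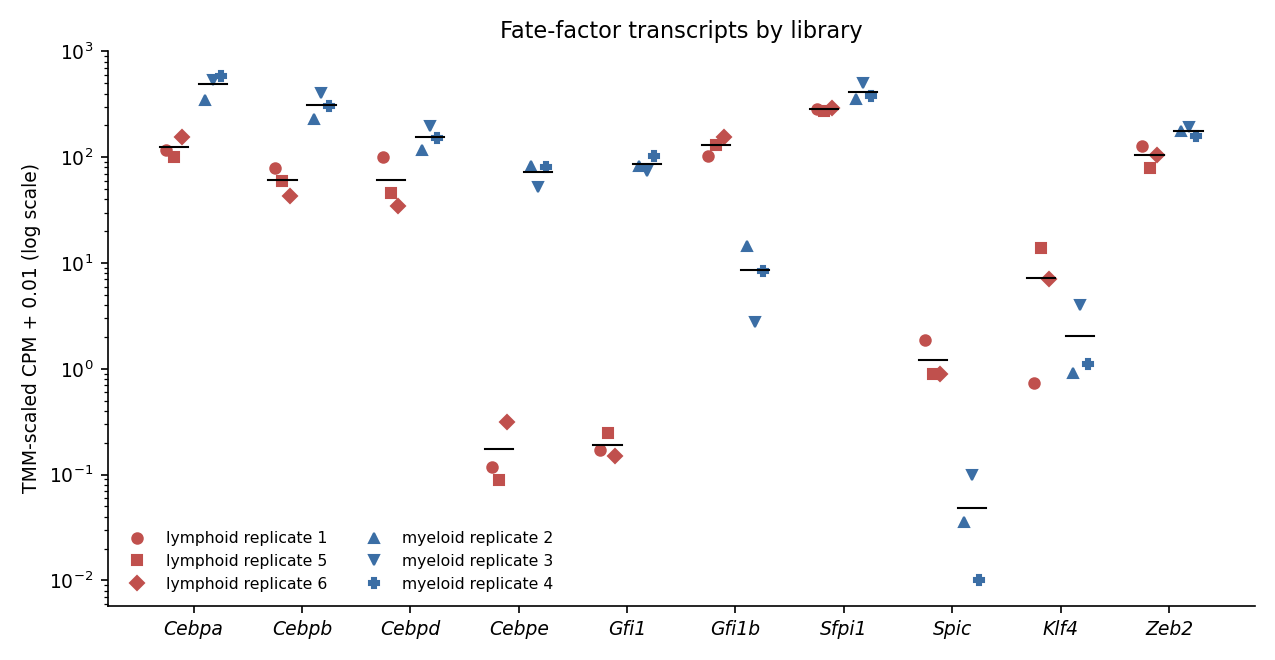
Levels of the 10 members in every library, in TMM-scaled CPM (counts per 1000000 counts of a library) plus 0.01 on a log axis, with red symbols for the pro-lymphoid libraries at the left of each pair, blue symbols for the pro-myeloid libraries at the right, and a bar at each group's mean. Cebpe and Gfi1 lie under 0.4 CPM in all pro-lymphoid libraries and above 50 CPM in all pro-myeloid libraries, Gfi1b and Spic run the other way, and the groups overlap for Klf4 alone.

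The 4 C/EBP genes were all lower in pro-lymphoid culture, and Cebpe was the only one of them near the detection limit there. Cebpe (chr14:54710363-54712174 in mm10, minus strand, 2 exon blocks) had 0.109, 0.0785 and 0.303 CPM in lymphoid replicates 1, 5 and 6, against 82.4, 51.8 and 81.6 CPM in myeloid replicates 2, 3 and 4. The pro-lymphoid values rest on 4, 3 and 13 reads, where 3 counts correspond to 0.0650 to 0.0888 CPM in 1 library. The log2 fold change was -8.72 ± 0.44 (SE, edgeR adjusted p = 4.61e-05). It was -9.54 without lymphoid replicate 6, which held 13 of the 20 pro-lymphoid reads, and -8.91 to -8.39 with any other library left out, and the call was kept throughout. Per scaled library, the pro-myeloid group held 433 times as many Cebpe reads, with a 95% interval of 280 to 709 that covers counting error only.

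Cebpa (chr7:35119293-35121931, plus strand, 1 exon) had 117.5, 101.6 and 154.5 CPM in lymphoid replicates 1, 5 and 6, against 348.8, 542.3 and 586.2 CPM in myeloid replicates 2, 3 and 4. The highest pro-lymphoid library lay below the lowest pro-myeloid one, and the means were 124.6 ± 27.1 and 492.4 ± 126.3 CPM (SD, n = 3 each). Cebpa was 3.95-fold lower in pro-lymphoid culture (log2 fold change -1.98 ± 0.24, edgeR adjusted p = 0.00124). Cebpb (chr2:167688915-167690418, plus strand, 1 exon) had 79.2, 60.2 and 43.4 CPM in lymphoid replicates 1, 5 and 6, against 231.1, 407.4 and 305.8 CPM in myeloid replicates 2, 3 and 4. Again the groups were apart, and Cebpb was 5.17-fold lower (log2 fold change -2.37 ± 0.29, edgeR adjusted p = 0.00115). Cebpa and Cebpb kept their calls in all 13 alternatives, with log2 fold changes of -2.18 to -1.84 and of -2.60 to -2.14.

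Cebpd (chr16:15887286-15889545, plus strand, 1 exon), an inflammation-inducible C/EBP gene, had 101.4, 46.1 and 34.3 CPM in lymphoid replicates 1, 5 and 6, against 117.8, 199.2 and 153.0 CPM in myeloid replicates 2, 3 and 4. Lymphoid replicate 1 came close to the lowest pro-myeloid library, and the log2 fold change was -1.37 ± 0.41 (edgeR adjusted p = 0.0357). The call was lost without lymphoid replicate 5, lymphoid replicate 6, myeloid replicate 3 or myeloid replicate 4, with adjusted p-values of 0.106, 0.0942, 0.101 and 0.0810 and log2 fold changes of -1.39 to -1.08. Without lymphoid replicate 1 the log2 fold change was -1.96. Reads were counted without strand, and exons on the opposite strand share 322 bases with Cebpd (Spidr), 312 bases with Cebpb (Tmem189) and 51 bases with Cebpa (Gm45091) in GENCODE M21. The counted gene 2310008H04Rik overlaps Cebpd and averaged 38.5 CPM in the pro-lymphoid group and 42.5 CPM in the pro-myeloid group.

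Divided by exon length and scaled to a library total of 1000000 (TPM), the summed level of the 4 C/EBP genes was 295.7, 179.5 and 188.1 TPM in lymphoid replicates 1, 5 and 6, against 837.4, 1070 and 1031 TPM in myeloid replicates 2, 3 and 4. The makeup of that sum was most unlike between the cultures for Cebpe. Its share was 0.0617%, 0.0640% and 0.238% in lymphoid replicates 1, 5 and 6, against 16.5%, 6.90% and 11.8% in myeloid replicates 2, 3 and 4. Cebpa made up 42.4% ± 13.2 of the sum in pro-lymphoid libraries and 35.4% ± 3.77 in pro-myeloid libraries (SD, n = 3 each), and the values of the libraries overlapped. Cebpd made up 22.3% ± 8.54 in pro-lymphoid libraries and 13.2% ± 1.24 in pro-myeloid libraries, with the pro-lymphoid values running from 14.8% in replicate 6 to 31.6% in replicate 1. These shares are given without a test.

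The GFI1 family pair went in opposite directions. Gfi1 (chr5:107716655-107724343, minus strand, 6 exon blocks) had 0.163, 0.235 and 0.140 CPM in lymphoid replicates 1, 5 and 6, against 83.4, 74.5 and 102.8 CPM in myeloid replicates 2, 3 and 4. The pro-lymphoid libraries held 6, 9 and 6 Gfi1 reads, and the pro-myeloid libraries held 3201, 2515 and 4742. The log2 fold change was -8.90 ± 0.25 (edgeR adjusted p = 4.62e-06). The pro-myeloid group held 497 times as many Gfi1 reads per scaled library (95% interval 325 to 803, counting error only), and 1.01% of tested genes had a larger log2 fold change in size.

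Gfi1b (chr2:28609450-28621982, minus strand, 7 exon blocks), whose AAATCA match is printed above, had 102.8, 130.7 and 155.2 CPM in lymphoid replicates 1, 5 and 6, against 14.4, 2.75 and 8.33 CPM in myeloid replicates 2, 3 and 4. Every pro-lymphoid library lay far above every pro-myeloid one, and within the pro-myeloid group replicate 2 was the highest and replicate 3 the lowest. Gfi1b was 15.2-fold higher in pro-lymphoid culture (log2 fold change 3.93 ± 0.55, edgeR adjusted p = 0.00207). Gfi1 and Gfi1b kept their calls in all 13 alternatives, with log2 fold changes of -9.14 to -8.74 and of 3.51 to 4.53, the last without myeloid replicate 2.

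On the TPM scale the summed level of Gfi1 and Gfi1b was 117.5, 130.2 and 156 TPM in lymphoid replicates 1, 5 and 6, against 76.7, 48.6 and 74.7 TPM in myeloid replicates 2, 3 and 4. Gfi1b supplied 99.9% of the sum in each pro-lymphoid library. In myeloid replicates 2, 3 and 4 it supplied 21.3%, 5.49% and 11.3%, and Gfi1 the rest. The family sum was thus higher in every pro-lymphoid library than in any pro-myeloid one, although Gfi1 itself was near the detection limit there.

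**Figure D2:**
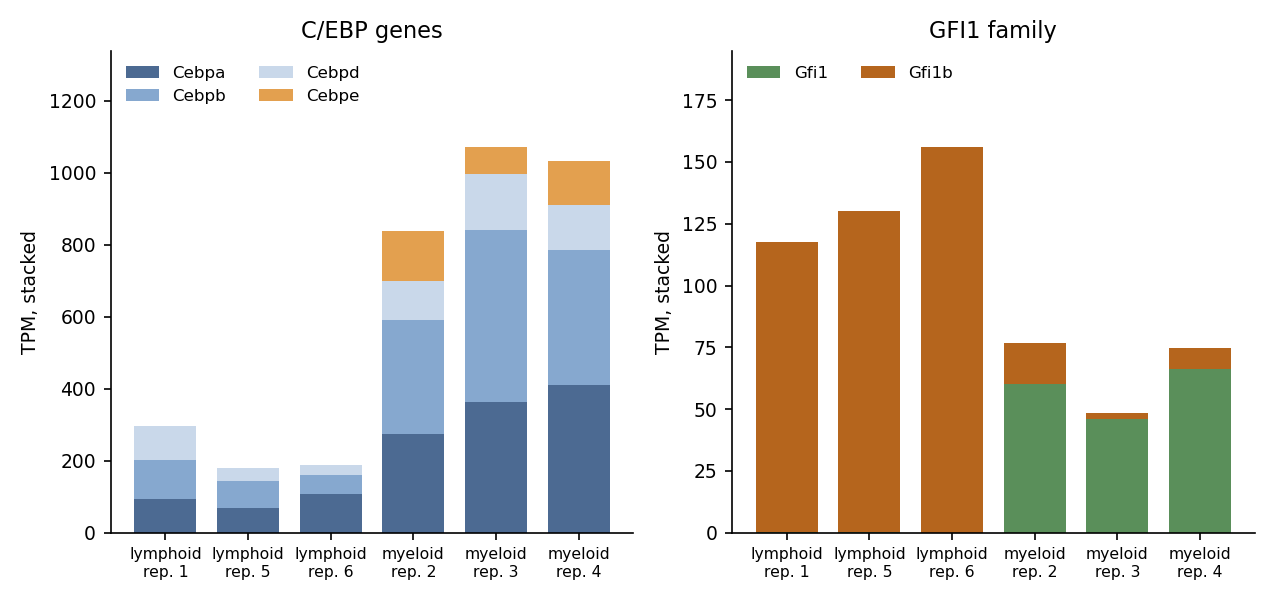
Stacked levels in TPM for each library, pro-lymphoid libraries at the left and pro-myeloid libraries at the right of each panel, for the 4 C/EBP genes and for Gfi1 with Gfi1b. The C/EBP stack is lower in the pro-lymphoid libraries and has no visible Cebpe layer, and the GFI1 family stack is made of Gfi1b in pro-lymphoid libraries and mostly of Gfi1 in pro-myeloid libraries.

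Sfpi1 (chr2:91096797-91115756, plus strand, 5 exon blocks), which encodes PU.1, was high in both cultures and differed little. It had 284.7, 273.5 and 291.1 CPM in lymphoid replicates 1, 5 and 6, against 358.7, 505.5 and 382.2 CPM in myeloid replicates 2, 3 and 4. The pro-lymphoid values lay within a narrow band below all pro-myeloid values, and Sfpi1 was 1.47-fold lower in pro-lymphoid culture (log2 fold change -0.55 ± 0.15, edgeR adjusted p = 0.0269). Of the tested genes 42.7% had a larger log2 fold change in size. The call was lost without lymphoid replicate 1, 5 or 6, with adjusted p-values of 0.0648, 0.0892 and 0.0827 and log2 fold changes of -0.57 to -0.53.

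The level of Cebpa relative to Sfpi1, both per length, was 0.209, 0.188 and 0.268 in lymphoid replicates 1, 5 and 6, against 0.491, 0.542 and 0.775 in myeloid replicates 2, 3 and 4. The log2 ratio averaged -2.19 ± 0.26 over pro-lymphoid and -0.76 ± 0.35 over pro-myeloid libraries (SD, n = 3 each). The difference was -1.43, the groups did not overlap, and the two-sided exact permutation p was 0.1, the smallest that 3 against 3 libraries allow.

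Spic (chr10:88675270-88683023, minus strand, 6 exon blocks) was low in both cultures and higher in pro-lymphoid culture. It had 1.87, 0.889 and 0.884 CPM in lymphoid replicates 1, 5 and 6, against 0.0260, 0.0888 and 0 CPM in myeloid replicates 2, 3 and 4. The pro-lymphoid libraries held 69, 34 and 38 reads and the pro-myeloid libraries 1, 3 and 0, so the pro-myeloid level was at the detection limit. The pro-lymphoid group held 35.3 times as many Spic reads per scaled library (95% interval 13.5 to 131, counting error only), and the edgeR adjusted p was 0.00416. The fitted log2 fold change was 4.999 ± 0.84, and it was 6.33 without myeloid replicate 3, 4.36 without myeloid replicate 4 and between these with any other library left out, with the call kept each time.

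Klf4 (chr4:55527137-55532475, minus strand, 5 exon blocks) varied more within the groups than between them. It had 0.732, 13.8 and 7.07 CPM in lymphoid replicates 1, 5 and 6, against 0.912, 4.03 and 1.11 CPM in myeloid replicates 2, 3 and 4. Lymphoid replicate 1 was below all pro-myeloid libraries and the other two pro-lymphoid libraries were above them. The log2 fold change was 1.85 ± 0.999 (edgeR adjusted p = 0.187), and without lymphoid replicate 1 it was 2.38 with an adjusted p of 0.0449. It was 0.97 without lymphoid replicate 5 and 2.83 without myeloid replicate 3, with adjusted p-values of 0.514 and 0.110, so single libraries moved it by over 1.5 times in both directions.

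Zeb2 (chr2:44983634-45113279, minus strand, 10 exon blocks) had 128.3, 79.7 and 105.0 CPM in lymphoid replicates 1, 5 and 6, against 177.0, 191.5 and 159.6 CPM in myeloid replicates 2, 3 and 4. The groups did not overlap, and Zeb2 was 1.69-fold lower in pro-lymphoid culture (log2 fold change -0.76 ± 0.18, edgeR adjusted p = 0.0173). Without lymphoid replicate 6 or myeloid replicate 3 the adjusted p was 0.0630 and 0.0501, with log2 fold changes of -0.76 and -0.69. The antisense gene Zeb2os shares 352 exon bases with Zeb2 in GENCODE M21, and the reads of the pair cannot be told apart without strand.

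**Figure D3:**
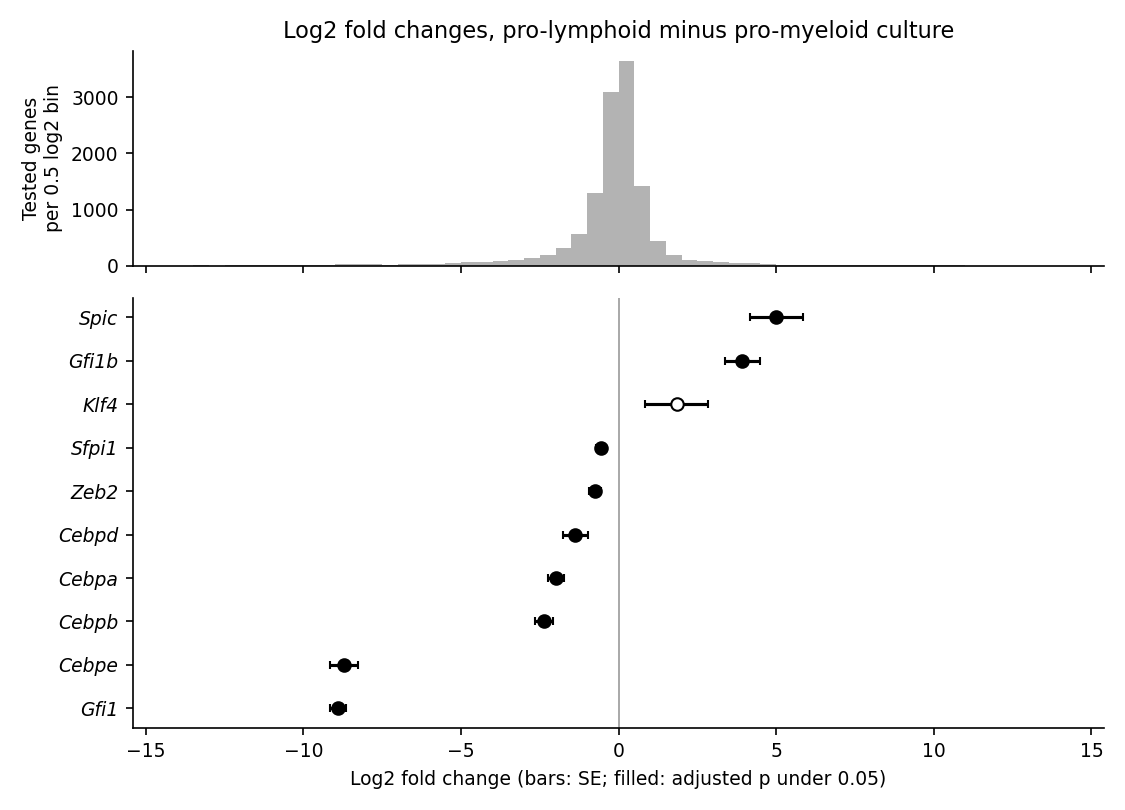
Log2 fold changes (pro-lymphoid over pro-myeloid culture) for all 12477 tested genes as a histogram with bins of 0.5 and for the 10 members with their SE, filled where the edgeR adjusted p is under 0.05. Gfi1 and Cebpe lie at -8.90 and -8.72, in the thin left tail of all genes, and Sfpi1 and Zeb2 lie within its bulk.

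The order of the members by level per length differed between the cultures. In pro-lymphoid culture Sfpi1 led with 405.3 ± 36.5 TPM, before Gfi1b with 134.5 ± 19.6 TPM and Cebpa with 89.9 ± 18.8 TPM (SD, n = 3 each). Cebpb at 78.3 ± 28.8 TPM and Cebpd at 52.7 ± 35.5 TPM followed, and the libraries' values of Cebpa and Cebpb, of Cebpb and Cebpd, and of Cebpd and Zeb2 overlapped. Zeb2 at 22.1 ± 6.78 TPM stood above Klf4 at 4.33 ± 3.87 TPM and Spic at 1.88 ± 1.04 TPM, which overlapped each other, and Cebpe and Gfi1 closed the order at 0.248 ± 0.176 and 0.119 ± 0.0299 TPM, also overlapping. In pro-myeloid culture Sfpi1 led again with 585.0 ± 74.5 TPM, followed by Cebpb with 390.4 ± 81.2 TPM and Cebpa with 348.6 ± 69.1 TPM, whose values overlapped. Cebpd at 129.4 ± 24.2 TPM and Cebpe at 111.1 ± 33.2 TPM also overlapped. Below them Gfi1 at 57.5 ± 10.4 TPM, Zeb2 at 36.5 ± 3.98 TPM, Gfi1b at 9.15 ± 6.88 TPM, Klf4 at 1.21 ± 0.977 TPM and Spic at 0.0555 ± 0.0630 TPM each stood apart from their neighbours.

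The genes most like each called member were found by the Euclidean distance between log2(CPM + 0.5) profiles over the 6 libraries, each centred on its own mean. This likeness is a description. Nearest to Cebpa were Tob1 (0.36) and Calu (0.46), and nearest to Cebpb were Fbxo4 (0.26) and Sipa1l2 (0.28). Dio2 was among the 2 nearest genes of both Gfi1 (0.44) and Cebpe (0.66). Dio2, a thyroid hormone deiodinase gene, had 0.136, 0.0523 and 0.0465 CPM in lymphoid replicates 1, 5 and 6, against 93.2, 63.3 and 85.6 CPM in myeloid replicates 2, 3 and 4. Mex3a was nearest to Gfi1b at a distance of 0.89, and Fam117a was nearest to Sfpi1 at 0.10.

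Genes of the surrounding pathways were taken from lists of relatives, partners, targets and markers, and their counts are descriptions. The lists too were chosen with earlier results of these data known. The 5 lists of relatives, partners and targets held 82 genes, of which 73 were tested, 6 were higher and 31 were lower in pro-lymphoid culture. Over all tested genes 16.8% were higher and 20.6% were lower, with a median log2 fold change of 0.

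Among other C/EBP genes and relatives of the ETS, ZEB and KLF members, 1 of 12 tested genes was higher and 2 were lower, with a median log2 fold change of -0.50. The higher one was Spib, the ETS factor of B cells and plasmacytoid dendritic cells. It had 54.2, 146.0 and 56.5 CPM in lymphoid replicates 1, 5 and 6, against 0.0781, 0.148 and 0.152 CPM in myeloid replicates 2, 3 and 4 (log2 fold change 9.37 ± 0.62, edgeR adjusted p = 0.000113). Spib and Spic, both relatives of PU.1, were thus higher in pro-lymphoid culture, Spic at no more than 1.87 CPM. Sfpi1 was 1.47-fold lower there, and its call was lost when any pro-lymphoid library was left out. The KLF genes Klf3 and Klf7 were lower, with log2 fold changes of -3.03 ± 0.20 and -1.59 ± 0.33 (edgeR adjusted p = 0.000105 and 0.00980). Cebpg, whose protein can dimerize with other C/EBP proteins, averaged 68.5 ± 10.4 CPM in pro-lymphoid libraries and 68.2 ± 13.1 CPM in pro-myeloid libraries (SD, n = 3 each), with a log2 fold change of 0.01 ± 0.18.

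Among partners and regulators 2 of 18 tested genes were higher and 3 were lower, with a median of -0.59. Kdm1a, which encodes the GFI1 partner LSD1, had 157.9, 144.9 and 179.2 CPM in lymphoid replicates 1, 5 and 6, against 75.4, 67.5 and 70.3 CPM in myeloid replicates 2, 3 and 4 (log2 fold change 1.18 ± 0.12, edgeR adjusted p = 0.00063). Hdac2, a histone deacetylase of the same repressor complexes, was higher by a log2 of 0.57 ± 0.13 (edgeR adjusted p = 0.0124). The complex scaffold Rcor1 and the deacetylase Hdac1 did not pass, with log2 fold changes of -0.34 ± 0.16 and 0.17 ± 0.15. Id1, Nab2 and Myb were lower, with log2 fold changes of -4.59 ± 0.44, -3.13 ± 0.35 and -1.05 ± 0.23. Trib1, which targets C/EBP alpha for degradation, had 1.76, 2.46 and 2.16 CPM in lymphoid replicates 1, 5 and 6, against 2.14, 23.2 and 4.25 CPM in myeloid replicates 2, 3 and 4, with overlapping groups. Rfwd2 (now Cop1), the ligase that acts with it, had a log2 fold change of 0.04 ± 0.12, and Trib2 had no read in any library. The monocyte and dendritic cell factor Irf8 had 616.3, 1042 and 879.1 CPM in lymphoid replicates 1, 5 and 6, against 338.2, 655.9 and 361.0 CPM in myeloid replicates 2, 3 and 4 (edgeR adjusted p = 0.0536).

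Of 13 tested C/EBP targets of granulocytes 11 were lower and 0 were higher in pro-lymphoid culture in the edgeR test, with a median log2 fold change of -6.10. At an unadjusted p under 0.05, 12 were lower and 1, the interleukin-6 receptor gene Il6ra (log2 fold change 0.92 ± 0.37), was higher, and DESeq2 and limma-voom each called 1 higher. Elane, the neutrophil elastase gene, had 1.11, 0.811 and 3.75 CPM in lymphoid replicates 1, 5 and 6, against 1462, 1323 and 1744 CPM in myeloid replicates 2, 3 and 4 (log2 fold change -9.62 ± 0.67, edgeR adjusted p = 0.000133). Cd177 and Ms4a3 were lower by similar amounts, with log2 fold changes of -8.96 ± 0.56 and -8.86 ± 0.54. Ctsg, a cathepsin gene of primary granules, was still read at 85.9, 65.6 and 152.3 CPM in lymphoid replicates 1, 5 and 6, against 1908, 1934 and 2387 CPM in myeloid replicates 2, 3 and 4. Of the secondary granule genes, Ltf and Camp lay under 1 CPM in every library of both cultures and were not tested. Lcn2 and Ngp were lower, with log2 fold changes of -6.10 ± 0.77 and -8.37 ± 1.35. In myeloid replicates 2, 3 and 4, Lcn2 had 246.6, 175.2 and 123.9 CPM and Ngp had 0.703, 8.17 and 11.2 CPM. The summed level of the list was 789.2 to 1809 TPM in pro-lymphoid and 15570 to 24680 TPM in pro-myeloid libraries.

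Of 19 tested PU.1 targets 9 were lower and 0 were higher in the edgeR test, with a median log2 fold change of -0.83. At an unadjusted p under 0.05, 11 were lower and 1, Coro1a (log2 fold change 0.51 ± 0.20), was higher, DESeq2 called 1 higher and limma-voom 0. Tlr4 and the Fc receptor gene Fcgr3 were lower by a log2 of -3.89 ± 0.26 and -4.98 ± 0.54. The GM-CSF receptor genes Csf2rb and Csf2ra were lower by a log2 of -2.56 ± 0.29 and -2.28 ± 0.29, where Csf2rb is uncertain because it has a near-identical paralog. Csf1r, the M-CSF receptor gene, had 408.8, 180.7 and 181.3 CPM in lymphoid replicates 1, 5 and 6, against 579.1, 536.1 and 251.1 CPM in myeloid replicates 2, 3 and 4, with overlapping groups (edgeR adjusted p = 0.165). The summed level of the list was 3846 to 4693 TPM in pro-lymphoid and 5042 to 6975 TPM in pro-myeloid libraries.

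Of 15 genes known to be repressed by GFI1, all tested and Gfi1b among them, 3 were higher and 7 were lower in pro-lymphoid culture, with a median log2 fold change of -1.08. Besides Gfi1b, the pro-apoptotic genes Bbc3 and Bax were higher by a log2 of 1.02 ± 0.19 and 0.63 ± 0.12. Ets1 had 0.190, 0.0785 and 0.140 CPM in lymphoid replicates 1, 5 and 6, against 120.4, 78.5 and 101.1 CPM in myeloid replicates 2, 3 and 4 (log2 fold change -9.49 ± 0.32, edgeR adjusted p = 9.42e-06). Socs3, Id1 and Hoxa9 were lower by a log2 of -2.83 ± 0.16, -4.59 ± 0.44 and -0.95 ± 0.11.

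**Figure D4:**
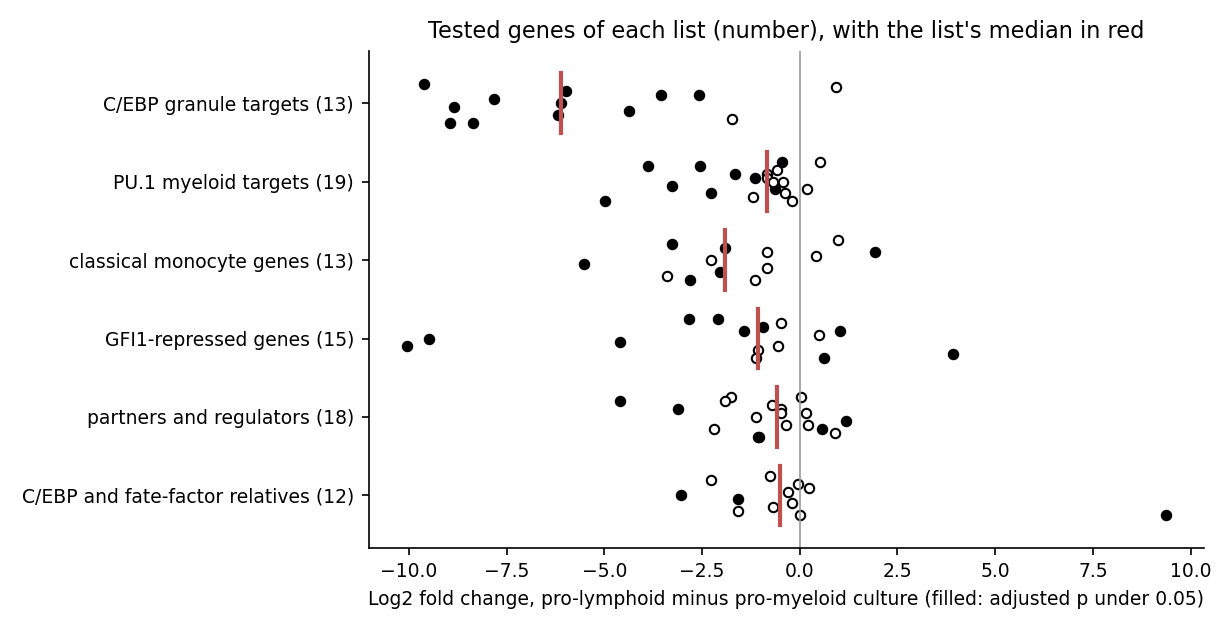
Log2 fold changes (pro-lymphoid over pro-myeloid culture) of the tested genes of 6 lists, filled where the edgeR adjusted p is under 0.05, with each list's median as a red line. The C/EBP granule targets have their median at -6.10, the PU.1 targets at -0.83 and the GFI1-repressed genes at -1.08.

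Markers of other cell types were counted in the same way, and their part in these results was not tested. Their counts here and in the next paragraph stand beside 16.8% higher and 20.6% lower over all tested genes. Of 13 classical monocyte genes 5 (Ly6c2, Fcgr1, F13a1 and Nr4a1 among them) were lower and 1, S100a4, was higher in pro-lymphoid culture, with a median of -1.92 and a summed level of 727.8 to 1976 TPM in pro-lymphoid and 2837 to 4369 TPM in pro-myeloid libraries. Beside Gfi1b, the erythroid and megakaryocyte markers summed to 37.9 to 86.5 TPM in pro-lymphoid and 149.4 to 240.3 TPM in pro-myeloid libraries, and of 5 tested genes Tal1 was higher and Nfe2 lower. The 4 globin genes of that list had no read in any library, and Gata1 had at most 0.152 CPM. Of 4 tested mast cell and basophil markers 3 (Mcpt8, Ms4a2 and Hdc) were lower. The groups overlapped for Hdc, which had 0.521, 29.8 and 76.3 CPM in myeloid replicates 2, 3 and 4. Its values were 1.63, 0.942 and 1.26 CPM in lymphoid replicates 1, 5 and 6. Ms4a2 was low in both cultures, at no more than 2.42 CPM. The list summed to 8.36 to 23.0 TPM in pro-lymphoid and 71.0 to 141.7 TPM in pro-myeloid libraries, and 5 of its 10 genes were at 0 in all libraries.

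Beside Spic, the red pulp macrophage markers summed to 44.6 to 112.7 TPM in pro-lymphoid and 62.8 to 112.5 TPM in pro-myeloid libraries. Of 5 tested genes, Cd163 was higher and 2, Hmox1 and Mertk, were lower, Mertk at no more than 0.417 CPM. Vcam1, Slc40a1 and Siglec1 were under 0.5 CPM in every library. Emr1 averaged 58.75 CPM in pro-lymphoid and 44.35 CPM in pro-myeloid libraries and did not pass, with overlapping groups. Beside Spib and Zeb2, 5 of 9 tested dendritic cell markers (Siglech, Bst2, Itgax, Flt3 and, at no more than 0.392 CPM, Clec9a) were higher. Tcf4 was lower. The markers summed to 1389 to 1549 TPM in pro-lymphoid and 1020 to 1459 TPM in pro-myeloid libraries. Among them Siglech, a marker of plasmacytoid dendritic cells, had 6.78, 93.2 and 51.1 CPM in lymphoid replicates 1, 5 and 6, against 0.0260, 1.30 and 0.347 CPM in myeloid replicates 2, 3 and 4. Lymphoid replicate 1, the lowest of its group for Siglech, was also the lowest for Klf4 and Gfi1b and the highest for Cebpb, Cebpd, Spic and Zeb2. Of 5 tested B and T lineage markers 3 (Vpreb1, Igll1 and Thy1) were lower, and the T cell marker Cd3e had no read in any library. Vpreb1 and Igll1 were low in both cultures, at no more than 3.27 and 0.520 CPM. Thy1 had 16.7, 0.740 and 2.95 CPM in myeloid replicates 2, 3 and 4 and at most 0.0233 CPM in pro-lymphoid libraries. Under the HSPC label, the progenitor markers Kit, Cd34 and Cd48 were read in all libraries and were higher in pro-lymphoid culture. Hoxa9, Meis1 and Myb were also read in all libraries and were lower there. Kit had 80.4, 68.4 and 101.7 CPM in lymphoid replicates 1, 5 and 6, against 18.9, 13.3 and 42.6 CPM in myeloid replicates 2, 3 and 4.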

How the data were processed

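The authors deposited 1 table of read counts per gene, not normalized, with the summed exon length of each gene in bases. Per the file headers, featureCounts 1.5.1 counted primary alignments over the exons of a UCSC annotation of mm10 with no use of strand. The submitters' processing notes also name Trimmomatic, Bowtie, TopHat and DESeq2, with no settings. Per the labels' protocols, poly(A) RNA was sequenced as single-end reads from a kit that does not mark strand. Counting without strand means that reads of overlapping and antisense genes cannot be told apart.

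From the deposited counts, CPM values were computed with TMM factors of 0.961 to 1.054 and TPM values with the exon lengths in the table. Genes were tested with edgeR 4.0.16 in R 4.3.3 (filterByExpr with a minimum count of 10, quasi-likelihood F test, two-sided, Benjamini-Hochberg adjustment at 0.05 over 12477 genes). SEs come from each gene's F statistic. Columns of other samples numbered 0. The 6 libraries were grouped by the labelled culture condition. The procedure was tested on simulated counts. Alternatives were RLE or upper-quartile scaling, no filter, at least 1 CPM in 3 libraries as the filter, DESeq2 1.42.0, limma-voom (limma 3.58.1), each library left out in turn and, added after seeing the data, a robust edgeR fit.

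The members and the lists were chosen with earlier results of these data known. All members were named, and of each list the 4 tested genes with the smallest adjusted p could be named. The text names further list genes, chosen after their values were seen. Some list genes are counted but not reported singly here. Similar genes were the 2 nearest among those averaging 5 CPM or more in their higher group. Promoters and motif shares come from RefSeq on GRCm38.p6, and gene overlaps from the counting annotation and GENCODE M21. Cop1 is listed as Rfwd2.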

Additional observations from a re-analysis of the deposited data

How the results depend on the processing

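No paired analysis was possible because no replicate number occurs in both groups. No member changed direction under any alternative, including the robust fit, which was added after seeing the data. Under the filter of 1 CPM in 3 libraries Spic was not tested, so that 1 member was higher in place of 2. With each library left out in turn, 4 to 7 members were lower and 2 to 3 higher, with 4 lower without lymphoid replicate 6, where Cebpd, Sfpi1 and Zeb2 lost their calls. Over all genes 2893 to 5224 were called and 1158 to 2417 were higher, the lowest counts again without lymphoid replicate 6. Higher counts were 1361 without lymphoid replicate 5 and 1340 without myeloid replicate 4. Among the relatives 1 to 2 genes were higher and 2 to 5 lower, with 2 higher without lymphoid replicate 1 and 5 lower without myeloid replicate 2. Among the partners 1 to 3 were higher, with 1 without lymphoid replicate 6, and 3 to 5 lower, with 5 without myeloid replicate 2, and DESeq2 called 6 lower. Of the granule targets 0 to 1 were higher, with 1 without myeloid replicate 3, and DESeq2 and limma-voom also called 1. Of the PU.1 targets 0 to 1 were higher, with 1 without myeloid replicate 3, and DESeq2 also called 1. With a library left out 6 to 12 PU.1 targets were lower, and DESeq2 called 11 lower. The count was 6 without lymphoid replicate 6 or myeloid replicate 3 and 12 without myeloid replicate 2. The causes were not tested. The difference in the log2 ratio of Cebpa to Sfpi1 was -1.58 to -1.24 with a library left out. No scaling moved the median log2 fold change of all tested genes by more than 0.047. Depth limits the pro-lymphoid values of Cebpe and Gfi1 and the pro-myeloid values of Spic, which rest on 20, 21 and 4 reads.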
